A study of Vitis vinifera with 24 samples.

Results

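The 200 grapevine probes described here had nearly the same mean level at the beginning of veraison as in berries of defoliated vines at its end, and were far lower at harvest. They were chosen by their measured values from the 117999 grapevine probes on the array. For each probe the mean log2 intensity was taken over the 6 arrays at the beginning of veraison (BV) and over the 6 arrays of defoliated vines at the end of veraison (EV), and the median was taken over the 9 arrays at harvest (H). Of the 54230 probes whose first 2 values differed by less than 0.25, the members are the 200 with the most negative change from EV to H. They are ranked by that change, rank 1 being the most negative. The level over veraison and the decrease after it, averaged over treatments, are therefore the selection itself and are given without a test. The differences between treatments within a stage were not used to choose the members.

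Veraison is the onset of ripening in the grape berry, when growth resumes, the flesh softens, sugars build up, acids decline and the skin of red cultivars colours. Ripening goes with a broad change of the transcriptome. Genes of photosynthesis and of early cell wall and tannin metabolism are typically switched down over the same weeks in which sugar and anthocyanin genes are switched up. A probe on this kind of array is a short oligonucleotide fixed to glass, and its fluorescence follows the amount of matching labelled RNA. No table used here pairs the probes with genes, so members are given by rank, and only the first 2 by identifier. No gene, pathway or cell type marker list could be counted for the same reason, and the labelled tissue could not be checked against marker genes.

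The question of the study was how removing leaves at different times affects ripening. The arrays had 1 colour (Cy3) and there were 24 of them, 3 for each of 8 groups. All vines were field-grown Sangiovese of clone 12T on SO4 rootstock. The control vines (C) kept their leaves. Pre-bloom defoliation (PB) removed the main and lateral leaves of 6 basal nodes by hand on Julian day 147, and veraison defoliation (V) did the same on day 211. C and PB berries were measured at BV, EV and H, whereas V berries were measured at EV and H only. Each replicate was a pool of berries from 3 vines of 1 block, with seeds removed, so a lower level from fewer cells of a type cannot be told apart from less RNA per cell. For the 6 C arrays at EV and H the labels describe a cluster-thinning experiment, and for the other 18 the defoliation experiment. At these stages the control and this difference between the sets cannot be told apart. The 3 C arrays at EV were not used to choose the members.

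Random-sequence probes, of which the array holds 19091, give a background level. Their mean log2 intensity was 5.77 to 6.03 on the BV arrays and 5.90 to 6.00 on the PB and V arrays at EV. On the C arrays at EV it was higher, at 7.15, 6.31 and 6.73. At H it was 5.89, 6.29 and 6.26 on the C arrays, 6.38, 6.56 and 6.03 on the PB arrays and 6.03, 5.91 and 5.98 on the V arrays. Below, a member counts as above background on an array when it exceeds the 95th percentile of the random-sequence probes there. That percentile was 6.98 to 7.89 at BV, but 10.6, 8.53 and 9.62 on the C arrays at EV.

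Members were well expressed before they decreased. Their level at EV in defoliated vines ran from 8.33 to 14.68 on the log2 scale with a median of 10.64, against a median of 8.28 over all probes level through veraison. The median was 10.65 at BV and 7.20 at H. Their change over veraison lay between -0.25 and 0.25, with 98 members above 0 and 102 below. Their change after veraison ran from -5.99 to -2.86 with a median of -3.24, which is a 9.47-fold decrease at the median. The last 3 members inside the limit changed by -2.87, -2.87 and -2.86, and the next 3 probes outside it by -2.86, -2.85 and -2.85, so the boundary cuts a continuous range. At H, 24 members were above background on 0 of the 9 arrays, 20 on all 9, and 72 on at least 5. With each harvest value held at no less than the background percentile, the median change was -2.29 and 189 members still changed by -1 or more.

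**Figure D1:**
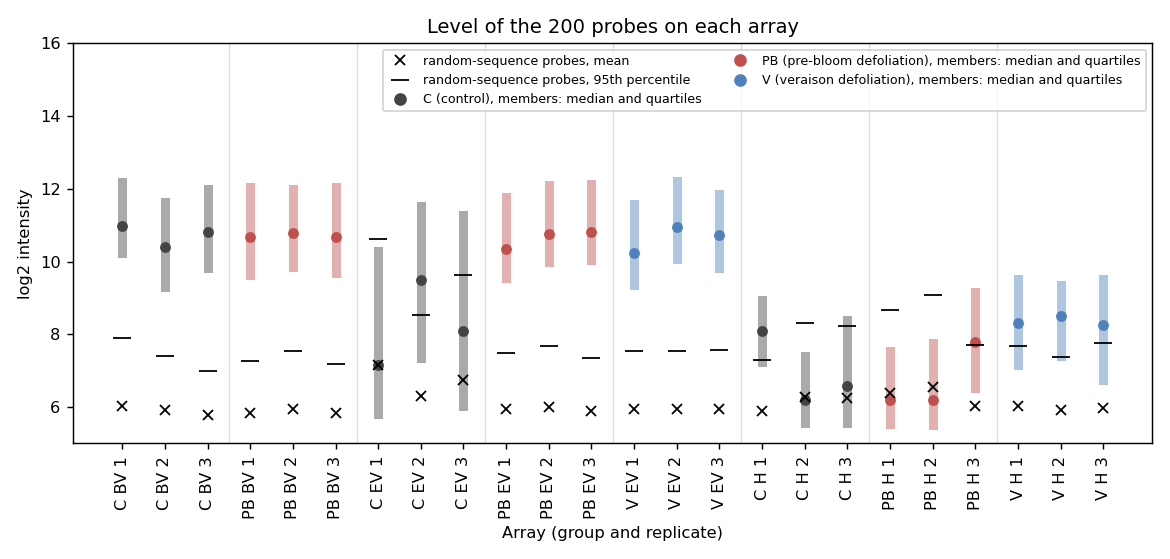
Median (point) and quartiles (bar) of the log2 intensity of the 200 members on each of the 24 arrays, with the mean (cross) and 95th percentile (dash) of the random-sequence probes. Member medians lie between 10.23 and 10.98 on the BV arrays and the PB and V arrays at EV, between 7.14 and 9.49 on the C arrays at EV, and between 6.20 and 8.50 at H.

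By array, the member medians were 10.98, 10.40 and 10.80 in C at BV and 10.69, 10.77 and 10.68 in PB at BV. They were 10.34, 10.76 and 10.83 in PB at EV and 10.23, 10.96 and 10.73 in V at EV. These 4 groups overlapped, and their means were 10.73 ± 0.30 (SD, n = 3), 10.71 ± 0.05, 10.64 ± 0.26 and 10.64 ± 0.37. C at EV stood apart, with medians of 7.14, 9.49 and 8.09 (8.24 ± 1.18, n = 3), and the array with the lowest member median was also the one with the highest random-probe level. At H the medians were 8.10, 6.20 and 6.59 in C (6.97 ± 1.00), 6.20, 6.20 and 7.78 in PB (6.73 ± 0.91) and 8.30, 8.50 and 8.26 in V (8.35 ± 0.13). The 3 V arrays were close together and above all arrays of C and PB, of which 1 each reached 8.10 and 7.78. Replicates of the members spread more at H and in C at EV than in the other groups. The root mean square SD between replicates was 0.43 to 0.69 in the 4 groups first named, 1.29 in C at EV and 1.18 to 1.26 at H, whereas over all probes it was 0.61 to 0.92 at H.

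The member with the strongest decrease, VitusP00202906, read 12.22, 12.87 and 13.02 in C and 13.11, 12.73 and 12.65 in PB at BV. At EV it read 11.56, 11.70 and 12.27 in C, 12.90, 13.08 and 12.41 in PB, and 11.85, 12.94 and 12.18 in V. At H it read 8.46, 5.97 and 7.15 in C, 6.11, 6.57 and 6.30 in PB, and 9.41, 7.84 and 5.99 in V. All 9 harvest arrays were below all 15 earlier ones, and the treatments overlapped at H. In PB it was above background on 0 of 3 harvest arrays, so its level there was at least 16.9-fold lower than at EV in defoliated vines, whose mean was 12.56. It was above background on 1 harvest array of C and on 2 of V. All 3 C arrays at EV read above all 3 C arrays at H, a difference that the harvest values behind its rank helped to choose.

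VitusP00236160, the member of rank 2, read 11.68, 11.49 and 10.99 in C and 11.18, 10.89 and 11.29 in PB at BV, and 10.89, 11.65 and 11.94 in PB and 11.07, 11.81 and 11.59 in V at EV. Its C arrays at EV were 6.37, 11.83 and 10.30, so 1 of them lay within the range of the harvest arrays while another was among the highest readings. Harvest values were 8.37, 5.11 and 7.48 in C, 4.70, 6.03 and 5.83 in PB, and 8.90, 8.31 and 6.10 in V. The decrease to PB at H was at least 8.07-fold, with 0 of 3 arrays above background. With that spread in C at EV, C against PB and V at EV (-1.99, SE 0.85, limma adjusted p = 0.0684) missed the threshold for VitusP00236160.

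The description of these probes as lower only after veraison was set by the defoliated vines. How far it held in C is uncertain, since many C readings at EV were in the background. The 3 C arrays at EV also correlated less well over all probes, at 0.76 to 0.91, against 0.95 to 0.98 within the other groups before harvest. In C berries most members read lower at EV than in defoliated vines. The mean of C at EV was below that of PB and V for 173 members (86.5%, against 50.5% of all grapevine probes), with a median difference of -2.50 and quartiles of -3.64 and -0.74. In all, 78 members were lower in C by 3 or more on the log2 scale, 66 by 1 to 3, 51 lay within 1, and 5 were higher by at least 1. These sizes rest in part on readings in the background. On the C arrays at EV, 78 members were above background on 0 of 3, 77 on 1 or 2 and 45 on all 3. With each C value held at no less than the background percentile of its array, a choice made after the values were seen, the median difference was -0.32. Then 49 members were lower by 1 or more, 0 by 3 or more, and 71 were not lower. The percentiles of 8.53 to 10.6 on these arrays came close to the member median of 10.64 in defoliated vines, so this floor leaves little room for a decrease. A limma model with 1 mean per group over all 24 arrays called a probe at an adjusted p below 0.02 and a log2 difference of at least 1. For C against PB and V at EV it called 118 members (28.4% of all probes were called). Of these, 115 were lower in C (16.0% of all probes) and 3 higher (12.4%). All 3 C arrays lay below all 6 PB and V arrays for 111 members (16.4% of all probes) and above them for 4 (14.7%). The PB and V arrays of this comparison did help to choose the members. The random-sequence probes, which match no grapevine transcript, were called in 22.5% of cases in the same comparison, with a median difference of 0.58 towards higher values in C. Their part in the members' difference was not tested. When that level was added to the model as a further term, 0 members and 6 probes in all were called. It was 6.31 to 7.15 on the C arrays at EV and 5.90 to 6.00 on the PB and V arrays. The term therefore nearly follows the groups compared, and the loss of calls cannot tell the 2 apart.

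**Figure D2:**
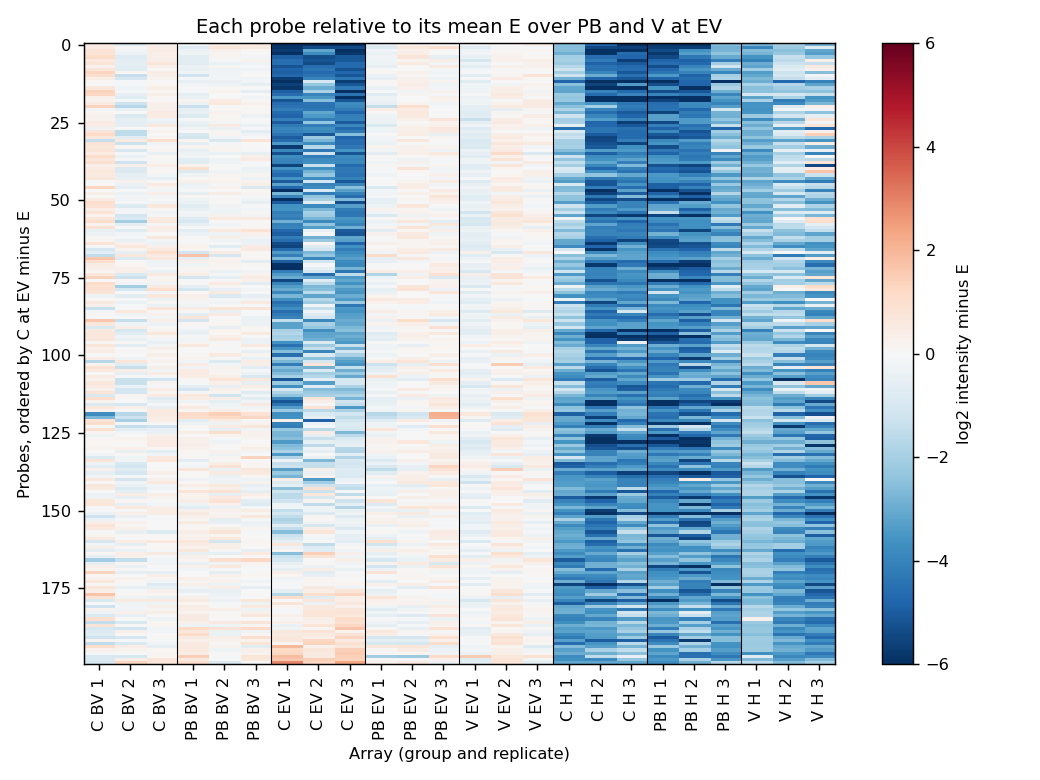
Log2 intensity of each of the 200 members (rows) on each of the 24 arrays (columns), minus its mean over PB and V at EV, with members ordered by the difference of C at EV. Blue means lower: 173 members are lower in C at EV by their mean, 78 of them by 3 or more, and the harvest arrays of V are paler than most of C and PB.

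For 27 members C had a mean at EV above that of defoliated vines. Another 28 had covered up to 25% of the whole decrease from EV in defoliated vines to the harvest median. For the remaining members the share is not given, since many of the C values at EV lay in the background and have no reliable order.

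Within C berries the calls fell at different steps for different members. The C arrays at BV carry the defoliation labels, those at EV and H the cluster-thinning labels. A change in C from BV to EV or to H therefore cannot be told apart from that difference between the sets. From BV to EV in C, 106 members were called (24.7% of all probes), 105 lower (13.3%) and 1 higher (11.4%), and the median change was -2.56. Of the random-sequence probes 15.5% were called in the same comparison, and with the random-probe level as a further term 0 members and 74 probes in all were called. This term again nearly follows the groups compared. From EV to H in C, 70 members were called (19.7% of all probes), all 70 of them lower (9.35%) and 0 higher (10.4%), with a median change of -1.12. Here 12.4% of the random-sequence probes were called, and the further term gave 78 members (4.57% of all probes). Fitting only the groups compared reduced the first count to 58 (4.69% of all probes) and the second to 0 (0.0%). The C arrays at BV and at H entered the choice of members, so neither count is independent of it, and the low direction of the second was favoured by it. Both steps share the C arrays at EV, so a low reading there adds to one step and takes from the other. The median change in C from BV to H was -3.51, and the choice of members used both stages. The decreases from EV to H, likewise used, had medians of -3.71 in PB and -2.64 in V, against 0.04 in both over all probes. They were called lower in 187 members in PB (5.7% of all probes) and in 97 in V (1.96%).

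**Figure D3:**
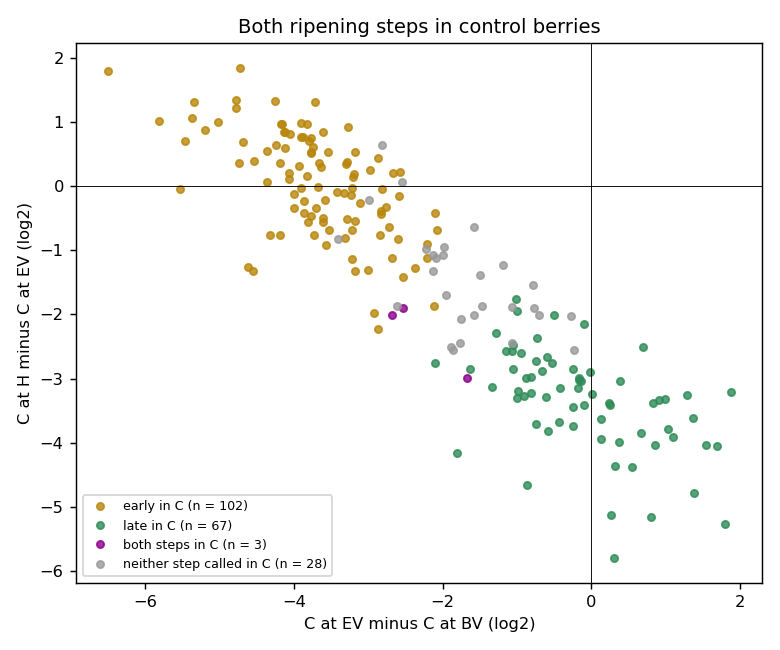
Each point is 1 of the 200 members, with its log2 change in C berries from BV to EV on the horizontal axis and from EV to H on the vertical axis. The 102 members called lower only in the first step sit to the left near a second step of 0 (median 0.09), and the 67 called lower only in the second step sit low near a first step of 0 (median -0.18). Both axes contain the C arrays at EV, and the horizontal one joins arrays with different experiment labels.

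By these calls, 102 members were lower in C in the first step alone (early in C), 67 in the second step alone (late in C), 3 in both and 28 in neither. This division was made after the values were seen, and it gets no test. It rests on the model without the random-probe level, since with that term 0 members were called from BV to EV, and on the pooled fit, since with only the groups compared 0 were called from EV to H. Early members changed in C by a median of -3.71 from BV to EV and 0.09 from EV to H, and late members by -0.18 and -3.26. On the 3 C arrays at EV the early members had medians of 5.85, 7.50 and 6.04, and 3, 38 and 9 of the 102 were above background. In all, 64 of the 102 were above it on 0 of the 3. With the floor used above, C minus defoliated vines at EV had a median of -0.47 in the early members. Then 35 of them were lower in C by 1 or more. On the same arrays the late members had medians of 11.48, 11.79 and 11.57, and 41, 64 and 58 of the 67 were above background. The early median thus lay below the random-probe mean on 2 of 3, and the late median stayed near its level at BV. The calls that define the 2 sets use these C arrays at EV, so this contrast follows from the division. Late members were also brighter at EV in defoliated vines, with a median of 11.78 against 10.16, and took 20 of the first 50 ranks against 18.

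The clearest early member, of rank 40 and chosen for the lowest p of C against PB and V at EV, read 5.24, 5.39 and 6.04 in C at EV. It read 9.31, 10.02 and 9.61 in PB and 9.58, 10.02 and 10.34 in V. The groups did not overlap, and C was called lower (limma adjusted p = 2.73e-06). All 3 C readings were in the background, so the size is only a bound, at least 1.17-fold lower. At H this member was low in every treatment, with means of 6.15 ± 0.67 in C, 5.70 ± 0.39 in PB and 6.42 ± 0.56 in V (SD, n = 3). The clearest late member, of rank 57 and chosen for the lowest p from EV to H in C, read 12.69, 13.07 and 12.76 in C at EV and 8.62, 8.93 and 9.74 at H, a change of -3.75 that the choice of members used in part. At H its mean was 9.10 ± 0.58 for C, with 9.57 ± 0.32 in PB and 9.36 ± 0.49 in V (SD, n = 3), so the treatments ended at overlapping levels.

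**Figure D4:**
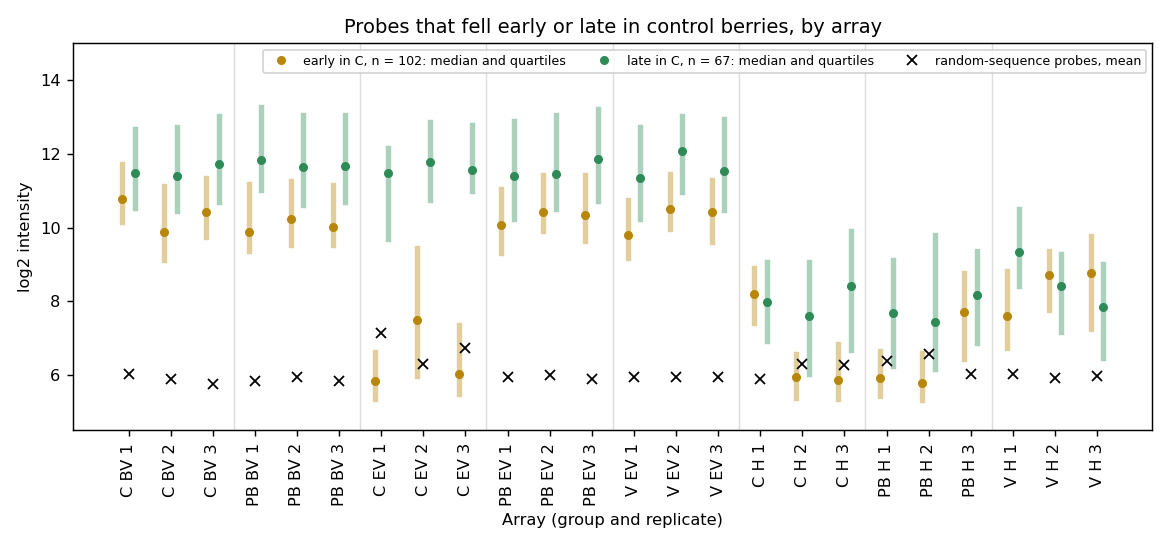
Median (point) and quartiles (bar) of log2 intensity on each array for the 102 members early in C and the 67 late in C, with the mean of the random-sequence probes (cross). On the C arrays at EV, which the division used, the medians are 5.85 to 7.50 for the early and 11.48 to 11.79 for the late members. At H the early members have medians of 7.61 to 8.78 in V.

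At H the measured means of the members were on balance highest in V, though many of the readings behind this order were in the background. The mean of V exceeded that of PB in 173 members and that of C in 164, with median differences of 1.16 and 1.04 (over all probes -0.06 and -0.04), and PB minus C had a median of -0.21 (all probes -0.02). PB had the lowest of the 3 means in 121 members, C in 64 and V in 15. Many of these readings were in the background, with 91 members above it on 0 of 3 arrays in PB, 51 in C and 28 in V. A floor at the background percentile of each array, also a choice made after the values were seen, gave a median V minus PB of -0.19. V was then above PB in 79 members, V minus C became 0.12 and PB minus C 0.44. The percentiles were 8.67, 9.07 and 7.69 on the PB arrays, 7.67, 7.39 and 7.76 on the V arrays and 7.30, 8.31 and 8.21 on the C arrays. This floor therefore raised low readings most in PB, and its signs cannot decide the order of the treatments. All 3 V arrays lay above all 3 PB arrays in 38 members (7.77% of all probes) and above all 3 C arrays in 27 (7.93%). The reverse held for 0 members against PB (8.86%) and for 1 against C (11.4%). All 3 PB arrays lay below all 3 C arrays in 8 (5.61%). At the level of single probes none of these differences passed the threshold. For PB against V, limma called 0 members (0.0% of all probes), with a lowest adjusted p of 0.0671, and at an unadjusted p below 0.05 there were 80 members lower in PB (9.59% of all probes) and 0 higher (8.09%). For V against C it called 0 members (0.0%), with a lowest adjusted p of 0.183, and at an unadjusted p below 0.05 there were 66 higher in V (7.87%) and 1 lower (8.83%). For PB against C it called 0 members (0.0%), with a lowest adjusted p of 0.352, and 8 members had an unadjusted p below 0.05, 1 higher and 7 lower (9.16% of all probes either way). Without replicate 3 of PB at H, 32 members were called, all lower in PB than in V (5.21% of all probes were called), and without replicate 1 of C at H, 22 were called, all higher in V than in C (2.46%).

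These differences moved with the random-probe level. The 5 harvest arrays with a random-probe level of 5.89 to 6.03, which are the 3 V arrays, replicate 1 of C and replicate 3 of PB, had member medians of 7.78 to 8.50. The 4 with a level of 6.26 to 6.56 had member medians of 6.20 to 6.59. Among the first 5, V read 8.30, 8.50 and 8.26, C 8.10 and PB 7.78, so V was still the highest. The gap was less than the spread between replicates of C or PB, but that spread itself spans both sets of arrays. This division of the arrays was made after the values were seen, and its first set holds 1 array each of C and PB. The part of the random-probe level in the difference was not tested.

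**Figure D5:**
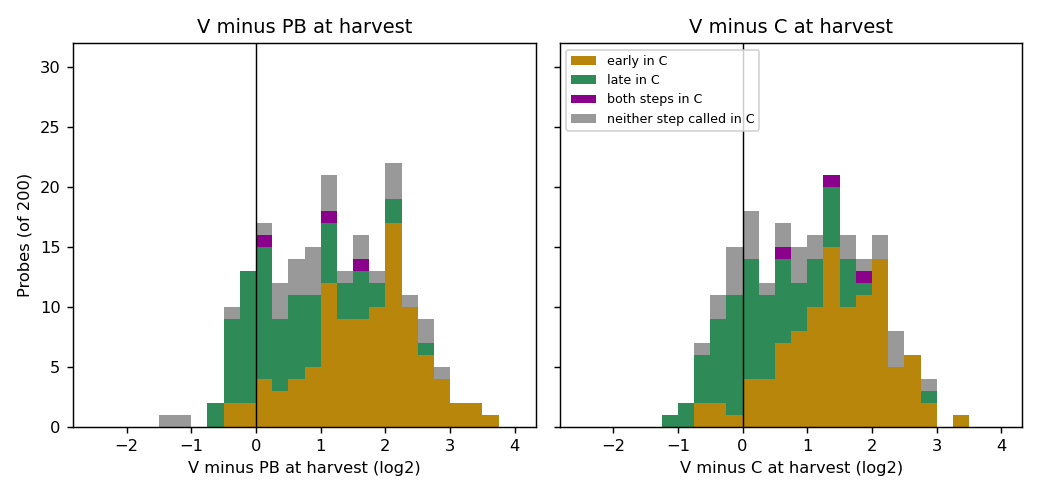
Number of members (vertical axis) by the difference between the V and PB means (left) and the V and C means (right) at H, on the log2 scale, coloured by the step at which they were called lower in C. Of 200 members 173 lie right of 0 on the left and 164 on the right, and the members early in C lie further right than those late in C.

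The median of V minus PB in the measured means at H was larger in the members early in C. V minus PB had a median of 1.77 in the early members, with V above PB in 98 of 102. In the late members the median was 0.41, with V above PB in 47 of 67. The differences called in C do not contain the PB and V arrays at H. Those arrays did enter the spread shared by the fit and the harvest median that chose the members. V minus PB is therefore not independent of the division into early and late. Of the 102 early members, 5, 3 and 51 were above background on the PB arrays and 47, 88 and 70 on the V arrays. Of the 67 late members, 23, 22 and 38 were above it in PB and 53, 46 and 35 in V. The sizes for the early members thus rest largely on PB readings that have no reliable order. Early members had medians of 7.61, 8.71 and 8.78 on the V arrays at H, 5.92, 5.79 and 7.70 on the PB arrays and 8.21, 5.94 and 5.88 on the C arrays. Late members had 9.35, 8.41 and 7.85 in V, 7.68, 7.45 and 8.16 in PB and 7.99, 7.60 and 8.42 in C, with overlap between all 3 treatments. From EV to H the early members changed by a median of -3.85 in PB and -2.21 in V, and the late members by -3.62 and -3.10. The difference between the 2 sets was not tested. The most separated member, of rank 27 and early in C, read 8.48, 8.47 and 8.11 in V at H, 5.46, 5.13 and 5.53 in PB and 7.22, 4.85 and 5.49 in C. V did not overlap with either group, yet PB against V (limma adjusted p = 0.0671) and V against C (limma adjusted p = 0.183) missed the threshold. PB and C were above background on 0 of 3 arrays each, and no size is given.

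Tested directly as the decrease from EV to H in V against that in PB, the median difference was 1.28 towards a smaller decrease in V. In limma 0 members were called (0.0% of all probes), with a lowest adjusted p of 0.64. At an unadjusted p below 0.05 there were 37 members with a smaller decrease in V (3.75% of all probes) and 0 with a larger one (3.84%). Before harvest the groups lay close for most members, with a median difference of -0.05 for PB minus C at BV (quartiles -0.25 and 0.17) and of -0.06 for V minus PB at EV (quartiles -0.31 and 0.17). In limma, PB against C at BV gave 0 called members (0.0%), and 4 had an unadjusted p below 0.05, all higher in PB (0.478% of all probes). PB against V at EV gave 0 called members (0.0%) and 1 at an unadjusted p below 0.05 (1.14%).

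How far the list depended on its own arrays was seen by choosing 200 probes anew without each replicate number and reading their change in the arrays left out. Without replicate 1, the new list kept 87 members, and in the arrays left out its median change from EV to H was -2.47, with all 200 probes lower by 1 or more (9.53% of all probes were). Without replicate 2, it kept 104 and the median was -3.59, again with all 200 lower by 1 or more (18.4%). Without replicate 3, it kept 98 and the median was -2.64, with 187 lower by 1 or more (12.7%). The level over veraison did not hold in this way. The change from BV to EV stayed within 0.25 in the arrays left out for 30, 68 and 96 of the 200 probes. Over all probes the shares were 37.6%, 35.8% and 37.2%, so only without replicate 3 did the new list exceed them. The median change from BV to EV of the new lists was -0.53, 0.34 and 0.07.

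Members tended to have neighbouring identifiers. Of the 200, 91 had another member within 10 identifier numbers, in 38 runs. This is not particular to them. In the 200 probes chosen by the same rule with the sign turned, it held for 96, in 40 runs. What the numbering follows is not given in the sources used here, but consecutive probes at most 10 numbers apart varied together over the 24 arrays (median r 0.28), whereas probes 1000 places apart did not (median r 0.00). Neighbouring members are therefore not independent readings. The 53 pairs of adjacent members had a median r of 0.90 over the 24 arrays, in part by their selection, and 14 pairs were both early in C, 18 both late, 8 mixed and 13 other. The longest run held the 4 members of rank 15, 93, 1 and 61, whose changes after veraison were -4.15, -3.29, -5.99 and -3.57. In C at EV those 4 had means of 11.40, 13.28, 11.84 and 10.69. These differed from the means in defoliated vines by 0.336, 1.481, -0.716 and -1.565. The member of rank 61 was thus among those lower in C by 1 to 3, and it read 8.87 on replicate 1, below the background percentile of 10.6 there. Within 10 numbers of a member lay 1091 probes that are not members. Their median change after veraison was -0.60, and 455 of them (41.7%) changed by -1 or more, against 11.1% of all probes. Of the neighbours of the list with the sign turned, 40.8% rose by 1 or more, against 8.85% of all probes. The 637 neighbours of early members included 249 (39.1%) that were lower by at least 1 in C at EV, and the 347 neighbours of late members 67 (19.3%), against 22.8% of all probes.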

How the data were processed

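The authors deposited 1 table of fluorescence intensity per probe, on a linear scale, already normalized so that the quartiles matched between arrays, with grapevine and random-sequence probes treated together. The software behind it is not given in the sources used here. The table has 139363 rows, of which 137090 are filled, 117999 by grapevine and 19091 by random-sequence probes. The array is a NimbleGen design, and the values ran from 20.35 to 61689. No pair of arrays correlated above 0.979, and all 24 entered as separate samples. Their number limits the precision.

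Intensities were taken to log2 with no filter. A limma model (R 4.3.3, limma 3.58.1, lmFit and eBayes without trend) with a mean for each of 8 groups left 16 residual degrees of freedom, and p-values were Benjamini-Hochberg adjusted over all 117999 probes. The threshold follows the 2% and 2-fold of the study's methods, which used SAM. The script was tested on simulated data. The members and the sets within them were chosen with earlier results of these data known. Named by identifier were the 2 members with the most negative change, and others only by rank. The reference table names 0 of the probes, and probe sequences were not used here. Alternatives covered array scaling, filters on low probes, the limits of the selection, the threshold, the variance model, the samples fitted, the random-probe level as a covariate, the replicate number as a block and leaving out each array. A floor at the background percentile was added after seeing the data. Python 3.11.15 and pandas 2.3.3 did the remaining steps.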

Additional observations from a re-analysis of the deposited data

How the results depend on the processing

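Over 11 results and 179 alternative values, 162 stayed within the limits set for them, and 17 did not. The limit was a factor of 1.5 for counts, including the members kept. For the median change it was the SD of 0.655 over the 9 harvest arrays, which mixes the treatments. Many of the 162 are counts of 0 that stayed 0, which say little about stability. The list kept 120 of its 200 members with a limit of 0.15 on the change over veraison, 106 with 0.50, 87 to 104 without one replicate number, 49 with the harvest of PB alone, 110 with V alone and 46 with C alone. The median change became -4.98 with PB alone at harvest and -4.77 with C alone, and was -3.69 to -2.82 under the other choices. With a term for the random-probe level, C against PB and V at EV and C from BV to EV gave 0 called members each. In both comparisons that level nearly follows the groups, so these counts cannot tell the 2 apart. Fitting only the groups compared gave 58 for C from BV to EV and 0 for C from EV to H. Leaving out one array gave 0 to 22 members for V against C at H (22 without C replicate 1), 0 to 1 for PB against C (1 without PB replicate 3), 0 to 32 for PB against V (32 without PB replicate 3), 86 to 129 for C against PB and V at EV, 75 to 115 for C from BV to EV and 58 to 76 for C from EV to H. Over all probes the last 3 ranges were 15980 to 45413, 13873 to 43097 and 12643 to 36495. The cause of these shifts was not tested. The labels do not tie a replicate number to a block, and only 4 of 21 pairs of same-numbered arrays had deviations correlated above 0.1, with the own number highest in 5, so the numbers were not taken to pair the samples. With the replicate block the counts were 115, 100 and 67 for those 3 comparisons and 0 for the others. With 3 arrays per group, the SD between replicates was near 1.2 at H and 1.29 in C at EV, against 0.43 to 0.69 in the other groups. Comparisons that use H or C at EV therefore rest on readings with a wider spread. The fit shares 1 spread per probe over all groups, so its SE does not show this. Values below the random-probe percentile have no reliable order.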

Other observations

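A few members departed from the level course within veraison, and they were picked for that after their values were seen. The member of rank 7 read 6.59, 8.66 and 10.87 in C at BV and 11.47, 11.78 and 11.22 in PB, a difference of 2.78 that missed the threshold in limma (adjusted p = 1.0). The member of rank 37 read 7.90, 7.78 and 11.09 in PB at EV and 11.56, 10.59 and 10.89 in V, a PB minus V difference of -2.08 that missed it too (limma adjusted p = 1.0). In C at EV the member of rank 37 read 11.81, 10.51 and 11.40, so it was not among the members low in control berries at that stage. The 200 probes with the most positive change after veraison, chosen by the same rule with the sign turned, had a V minus PB difference at H with a median of -0.59 and a C change from BV to EV with a median of 0.35.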
